A study of Mus musculus with 20 samples.

Results

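Levels of 8 genes of the NF-κB system were examined in follicular T cells: the subunit genes *Nfkb1*, *Nfkb2*, *Rel* and *Relb*, the inhibitor gene *Nfkbia*, the nuclear IκB genes *Nfkbid* and *Bcl3*, and the feedback gene *Tnfaip3*. They were chosen by name, and all 8 were among the 13798 genes of the expression matrix. NF-κB factors are dimers that wait in the cytoplasm bound to IκB proteins until antigen receptor, costimulatory or TNF receptor signals have the IκB destroyed, after which the dimers enter the nucleus and bind κB sites in DNA. Among the genes they switch on are those of their own inhibitors, so *Nfkbia* and *Tnfaip3* are widely read as feedback genes of the pathway. In T cells, c-Rel, the product of *Rel*, and the nuclear IκB protein made from *Nfkbid* are known for their part in the induction of *Foxp3*, the factor that defines regulatory T cells.

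The cells were splenic CD4+CXCR5+PD1+ T cells of irradiated C57BL/6 mice that had received congenic marrow, with 1 gene expression library and 1 T cell receptor library from each of 10 chimeras. WT chimeras (mice 11, 12, 14, 23 and 36) received WT marrow alone and were immunized with NP-OVA in alum at week 6, and 564Igi chimeras (mice 13, 17, 21, 24 and 34) received WT marrow mixed with marrow of 564Igi mice, which carry knocked-in heavy and light chains of an autoreactive B cell receptor, and were not immunized. The labels give week 10 as the time of analysis in both groups, and the study's methods add a booster for immunized mice. Foreign antigen in one group and autoreactive B cells in the other cannot be told apart, and neither can be separated from the normalization, which the authors ran on each group alone. By the study's methods the sort kept CD45.2+CD45.1- cells. Which marrow carried which CD45 allele is not given in the sources used here, so the sorted T cells were not assigned to a marrow. Labelled sex was F for mice 11, 12, 13, 21 and 34 and M for the others.

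The matrix held 28192 cells, of which the authors' clusters placed 11953 as activated Tfh cells, 11650 as follicular regulatory T (Tfr) cells, 2803 as Sostdc1 Tfh cells, 725 as central memory, 682 as effector and 379 as interferon stimulated Tfh cells. Each mouse gave 1121 to 4030 cells and 3424280 to 15241983 unique molecular identifiers (UMIs), lowest in mouse 24. *Cd3e* was found in 99.4% of cells, and *Foxp3* in 56.0% of Tfr and 7.20% of activated Tfh cells. Of 5 B cell markers, *Ms4a1* was detected in 0.0554% of cells, *Cd79a* in 0.253%, *Fcmr* in 2.83%, *Cd79b* in 3.52% and *Cd22* in 4.37%. Barcodes that occurred in more than 1 library belonged to 988 cells. The libraries of mice 34 and 36 stood apart with the highest mean heat shock scores, 0.115 and 0.0809, so condition differences were also taken without them.

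A level below is the mean over the cells of a mouse of log2(corrected UMI count + 1), and a difference is on that log2 scale. ± is the SD over mice, and the mouse was the replicate. A mouse needed 20 or more cells to enter a cluster. This kept 3 of 5 564Igi mice in the central memory cluster (mice 21 and 34 had 19 and 13 cells) and 4 against 4 in the interferon stimulated cluster.

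Promoter sequences of 6 members were at hand, as windows from 250 bases before to 50 after an annotated start (RefSeq, GRCm38.p6). The κB motif, searched by its consensus on both strands, lay in a window of each of the 6, in 8 of their 11 windows, a pair of which overlap, and in 8.46% of all 32817 promoter windows. *Nfkb1* and *Relb* had no window. The 150 bases before the start are shown for *Nfkbia* (chr12:55492648-55492797, minus strand) and *Rel* (chr11:23770970-23771119, minus strand), 5′ to 3′, as examples of an inhibitor and a subunit. Capitals mark the motif.
Nfkbia: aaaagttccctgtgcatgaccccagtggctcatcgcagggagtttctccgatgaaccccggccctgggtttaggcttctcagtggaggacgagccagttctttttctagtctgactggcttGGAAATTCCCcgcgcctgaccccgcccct
Rel: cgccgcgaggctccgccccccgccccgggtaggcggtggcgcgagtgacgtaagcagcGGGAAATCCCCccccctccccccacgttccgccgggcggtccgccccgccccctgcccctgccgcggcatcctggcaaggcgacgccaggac
The capitals of *Rel* are 2 overlapping matches. For the other members the matches alone are given. *Nfkb2* held GGGAATTCCC and the overlapping GGAATTCCCC, followed by GGGGCTTTCC, in its first window, GGAATGTCCC in its second, and 1 further match in a stretch that its later windows share. *Tnfaip3* held GGGACACCCC and GGAAATCCCC in its first window, *Nfkbid* held GGGACTTCCC and GGAATTCCCC in its second, and *Bcl3* held GGGAAGTCCC just past its start. A match is a stretch of letters and not a measured binding site.

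In GRCm38, the gene of the p50 precursor, *Nfkb1*, spans 135584655 to 135691547 on chromosome 3, and that of the p52 precursor, *Nfkb2*, 46304320 to 46312385 on chromosome 19. *Rel* spans 23736847 to 23770970 on chromosome 11. *Relb*, whose product pairs with p52 in the noncanonical pathway, spans 19606217 to 19629438 on chromosome 7. *Nfkbia*, for the cytoplasmic inhibitor IκBα, spans 55489410 to 55492647 on chromosome 12. *Nfkbid* and *Bcl3*, for IκB proteins that act on NF-κB dimers in the nucleus, span 30421732 to 30428746 and 19808462 to 19822770 on chromosome 7. *Tnfaip3*, for the ubiquitin-editing enzyme A20 that shuts off signals upstream of the IκB kinases, spans 19000910 to 19015657 on chromosome 10. All but *Nfkb2* and *Nfkbid* lie on the minus strand.

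Clusters were compared first, to ask in which follicular T cells these genes are expressed. In the Tfr cluster, 7 of the 8 members stood above the activated Tfh cluster in 10 of 10 mice, while *Nfkb1* stood below it in 10 of 10. Of 9682 genes compared, 12.4% were above and 6.97% below in all 10 mice. The clusters were made from the same cells' expression, so this comparison is a description and carries no test. B cell markers were also found in more Tfr than activated Tfh cells, *Cd79b* in 5.46% against 2.15%, *Fcmr* in 5.39% against 1.11%, *Cd22* in 5.15% against 4.10%, *Cd79a* in 0.321% against 0.178% and *Ms4a1* in 0.0693% against 0.0443%, and their part in the members' levels was not tested.

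*Nfkbia* showed the widest gap. Its level in the Tfr cluster was 1.60, 1.63, 1.56, 1.51 and 1.41 in WT mice 11, 12, 14, 23 and 36, and 1.97, 1.41, 1.71, 1.61 and 1.52 in 564Igi mice 13, 17, 21, 24 and 34. In the activated Tfh cluster it was 1.05, 1.06, 0.96, 1.06 and 0.97 in the WT mice and 1.33, 0.87, 1.03, 1.22 and 0.89 in the 564Igi mice, in the same order. Every Tfr value lay above every activated Tfh value, and mouse 13 was highest in both clusters. The mean difference within a mouse was 0.55 ± 0.10 (SD, n = 10). Counted per 10000 corrected UMIs, *Nfkbia* took 9.71 ± 1.48 in Tfr and 4.81 ± 0.95 in activated Tfh cells, a mean ratio of 2.05. The gap lay more in the amount per cell than in detection: *Nfkbia* was found in 74.7% of Tfr and 61.3% of activated Tfh cells, but 5 or more corrected counts were found in 24.7% ± 4.96 and 9.04% ± 3.06. Across the other clusters, levels were 1.20 ± 0.19 in interferon stimulated cells (n = 8), 0.99 ± 0.17 in Sostdc1 cells, 0.97 ± 0.15 in central memory cells (n = 8) and 0.93 ± 0.11 in effector cells. Interferon stimulated cells were above activated Tfh cells in 7 of 8 mice, and the neighbours below did not differ beyond their spread.

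Among the subunit genes, *Rel* had a Tfr level of 0.34 ± 0.08 (lowest 0.23, highest 0.47) against 0.23 ± 0.06 in activated Tfh cells, a difference within mice of 0.11 ± 0.04. Mice 34 and 36 were the lowest for *Rel* over all cells, at 0.18 and 0.19 against 0.25 to 0.40 in the other 8. *Nfkb2* reached 0.29 ± 0.05 in Tfr cells and lay between 0.12 and 0.19 in the other clusters, with a difference to activated Tfh cells of 0.12 ± 0.02. *Relb* was highest in Tfr cells as well, at 0.47 ± 0.06, followed by Sostdc1 cells at 0.40 ± 0.08, interferon stimulated cells at 0.34 ± 0.17 (n = 8) and activated Tfh cells at 0.32 ± 0.06. The Sostdc1 level of *Relb* was above the activated Tfh level in 9 of 10 mice and below the Tfr level in 9 of 10. Per 10000 UMIs, the Tfr to activated ratio was 1.61 for *Rel*, 1.78 for *Nfkb2* and 1.53 for *Relb*.

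*Nfkb1* followed another order. It was highest in the Sostdc1 cluster, where it was found in 45.4% ± 6.92 of cells, at 0.63, 0.50, 0.75, 0.67 and 0.57 in the WT mice and 0.55, 0.64, 0.51, 0.38 and 0.67 in the 564Igi mice. Activated Tfh cells had 0.41 ± 0.07, Tfr cells 0.30 ± 0.04 and effector cells 0.21 ± 0.09. The Sostdc1 level was above the activated Tfh level in 10 of 10 mice, by 0.17 ± 0.07, as for 5.38% of 9671 genes. No other member was above in every mouse and none was below in every mouse, beside 2.62% of genes below. The Tfr level of *Nfkb1* was below the activated Tfh level by 0.11 ± 0.05, a ratio of 0.70 per 10000 UMIs. Central memory and interferon stimulated cells, at 0.34 and 0.32, did not differ from activated Tfh or Tfr cells beyond the spread of the within-mouse differences.

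The nuclear IκB genes and *Tnfaip3* were again higher in Tfr than in activated Tfh cells. *Nfkbid* stood at 0.29 ± 0.05 in Tfr cells and at 0.10 to 0.17 elsewhere, and its ratio of 2.32 per 10000 UMIs between Tfr and activated Tfh cells was above that of *Nfkbia*. *Bcl3* stood at 0.40 ± 0.08 in Tfr cells, 0.37 ± 0.12 in interferon stimulated cells and 0.30 ± 0.11 in effector cells, with 0.22 to 0.26 in the others. Tfr and interferon stimulated cells did not differ in *Bcl3* beyond their spread, with 4 of 8 mice higher in each. *Tnfaip3* had its top level in effector cells, 0.20 ± 0.11, but that mean rests on mouse 12, at 0.46 from 23 cells, and 5 of 10 mice had a higher level in Tfr cells, at 0.18 ± 0.03. The *Tnfaip3* mean was lowest in activated Tfh cells, at 0.11 ± 0.02. Only Tfr cells differed from them beyond the spread of the within-mouse differences.

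**Figure D1:**
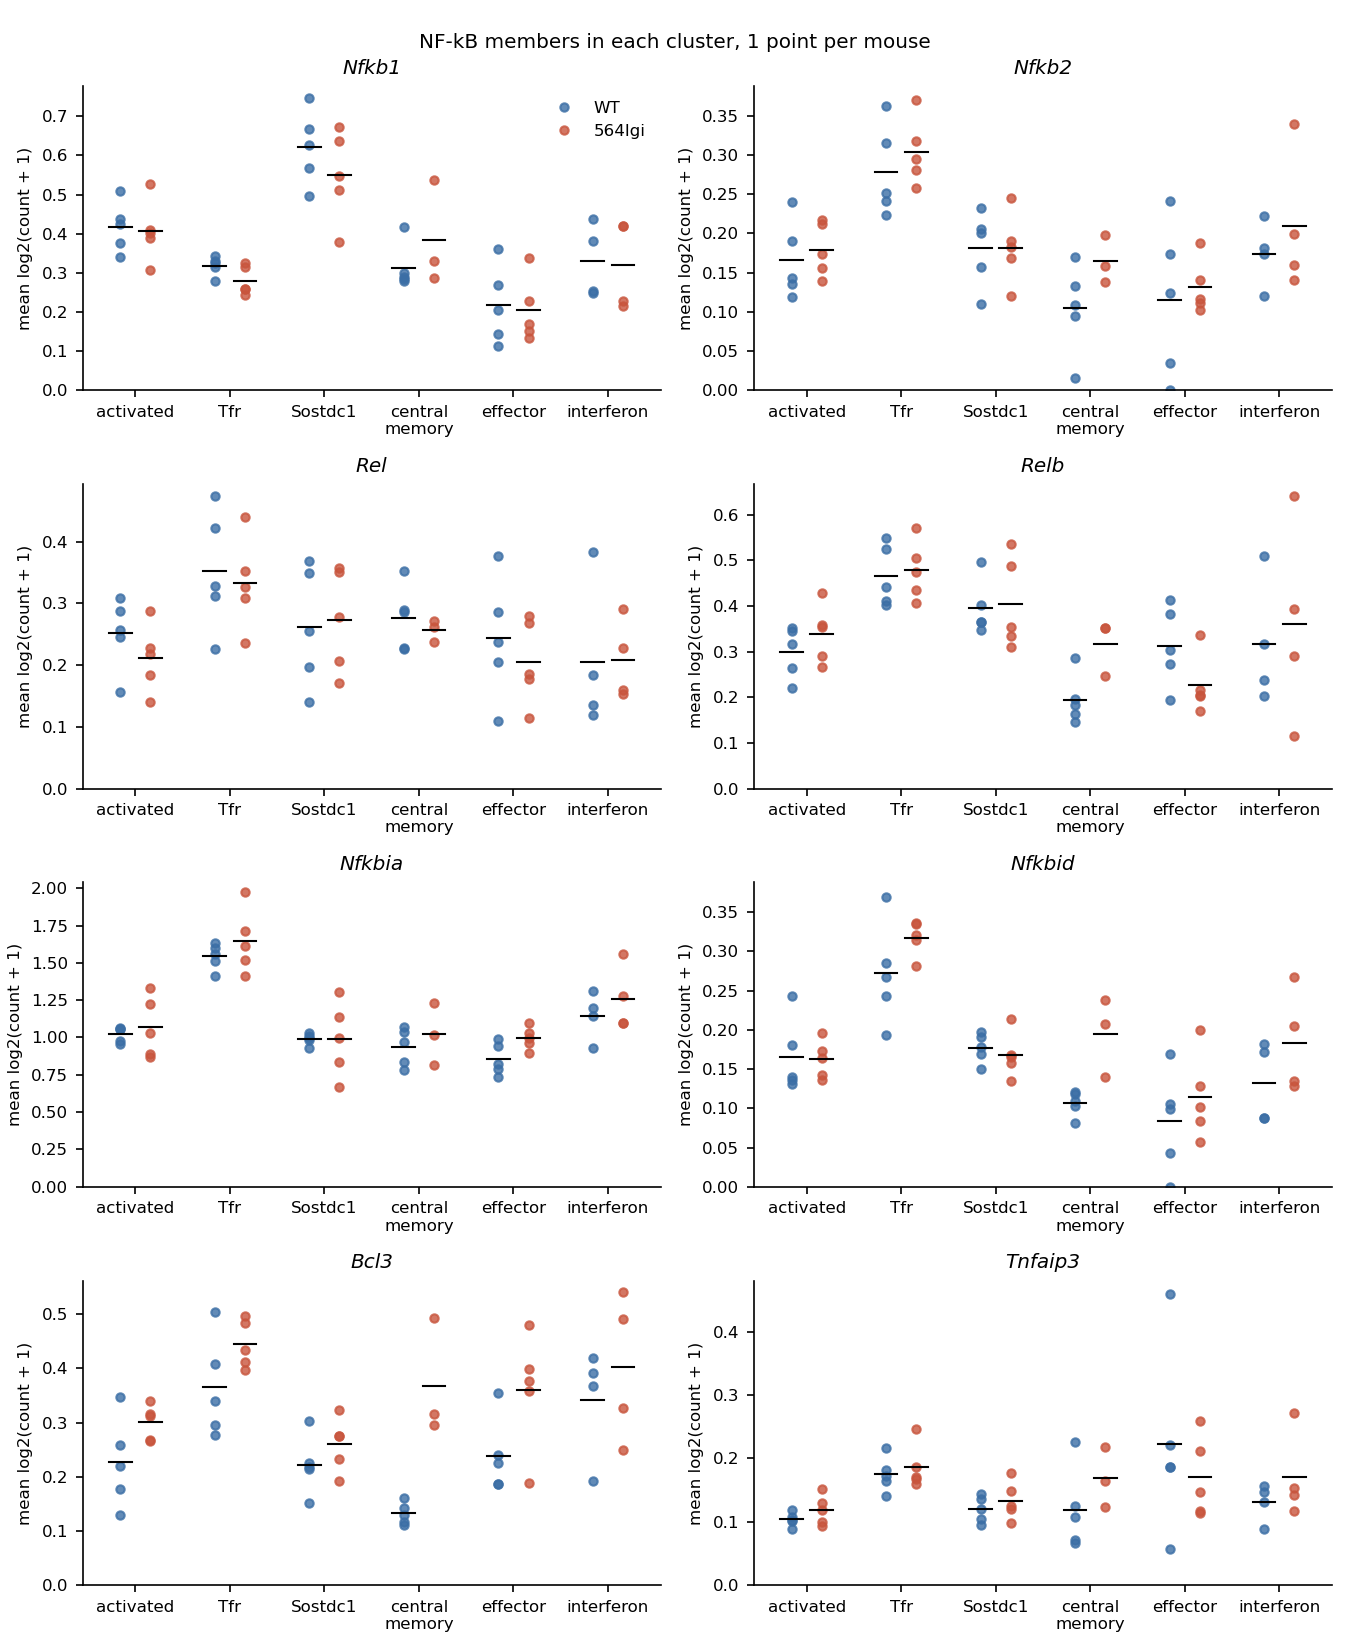
Level of each member by cluster, as mean log2(corrected count + 1) over the cells of a mouse, with 1 point per mouse (blue WT, red 564Igi) and a bar at each group's mean. *Nfkbia* and 6 other members are highest or nearly highest in the Tfr cluster, while *Nfkb1* is highest in the Sostdc1 cluster.

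**Figure D2:**
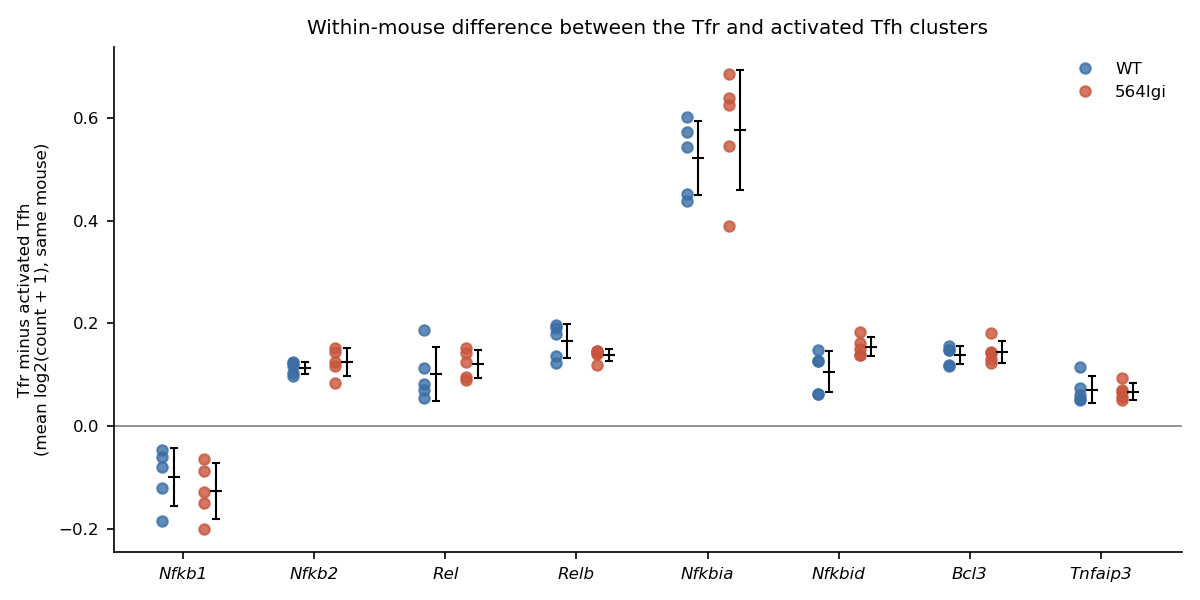
Level in the Tfr cluster minus level in the activated Tfh cluster of the same mouse, on the log2 scale, with 1 point per mouse (blue WT, red 564Igi) and the mean ± SD of 5 mice beside each set. All 10 mice are above 0 for 7 members and below 0 for *Nfkb1*.

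Other genes of the pathway were read from a list sorted by role. Of its target genes, 13 of 17 compared were above the activated Tfh level in Tfr cells in 10 of 10 mice, beside 12.4% of all genes. The cyclin gene *Ccnd2* alone was below, beside 6.97%. The median difference of the targets was 0.11 beside 0.00 over all genes. The most widely found targets were *Il2rg*, for the shared chain of interleukin receptors, at +0.34 ± 0.07, *Ccnd2* at -0.18 ± 0.08 and *Irf1*, an interferon regulatory factor, at +0.18 ± 0.06. Receptors that feed the pathway were above in 6 of 10 and below in 2. Of these, the TNF receptor family genes *Tnfrsf4* (OX40) and *Cd27* differed by +1.04 ± 0.08 and +0.22 ± 0.05, and the costimulatory receptor gene *Cd28* by -0.34 ± 0.04. Ligands went the other way in part: *Ltb*, the most widely found, was above by 0.22 ± 0.09, and *Tnfsf8*, *Cd40lg* and *Tnfsf11* were below, the first 2 of them by 0.83 ± 0.14 and 0.43 ± 0.07. *Tnfsf8* also marks the authors' activated Tfh cluster, and *Il2ra*, among the 13 targets above, was listed here as a Tfr marker.

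The list of kinases upstream of IκB, with their partner proteins, held 8 genes. None was above in every mouse, beside 12.4% of all genes. *Tab1* was below in every mouse by 0.01 ± 0.00, beside 6.97% of all genes. So few genes cannot be set apart from those shares. *Ikbkb*, for the kinase IKKβ, differed by 0.00 ± 0.03 with 5 of 10 mice higher. Of 12 inhibitor genes other than the members, 3 were above and 1 below, beside the same shares of all genes. Among those above was *Tnip1*, whose product works with A20, at +0.09 ± 0.02. *Nfkbib* and *Nfkbie*, for the inhibitors IκBβ and IκBε, were above by 0.05 ± 0.03 and 0.07 ± 0.02, and *Rela*, for the p65 subunit, differed by 0.03 ± 0.03 with 6 of 10 mice higher.

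Over the 56 means of a cluster in a mouse, *Nfkb2*, *Relb*, *Nfkbia*, *Nfkbid* and *Bcl3* varied together, with a Pearson r of 0.45 to 0.80 for each pair. The highest r of *Tnfaip3* with another member was 0.30, with *Bcl3*, and *Rel* ran from -0.14 with *Nfkb1* to 0.50 with *Nfkbia*. *Nfkb2* and *Nfkbid* were most alike (Pearson r = 0.80), each being the gene most like the other among 7061 genes found in at least 5% of cells. *Nfkbia* was most like *Cd74* (0.86), *Foxp3* (0.84) and the kinase gene *Pim1* (0.84), and *Nfkb2* also like *Tnfrsf4* (0.78) and the chemokine receptor gene *Ccr8* (0.77). The genes most like *Nfkb1* were *Wdr26* (0.81), *Cdc25b* (0.78) and *S1pr2* (0.77), a receptor of germinal centre cells, and its r with the other members ran from -0.40 with *Tnfaip3* to 0.12 with *Relb*. *Relb* was most like *Stx11* (0.80), *Sdf4* (0.74) and *Gdpd5* (0.72), and *Nfkbid* was next like *Il1r2* (0.80) and *Ccr8* (0.79). Likeness was weaker for *Bcl3* (*Plaat3* 0.69, *Kif5c* 0.69, *Cebpb* 0.68), *Rel* (*Gprin3* 0.66, *Eml4* 0.62, *Malat1* 0.61) and *Tnfaip3* (*Prdm1* 0.59, *Strn3* 0.58, *Gopc* 0.58). These means share mice, libraries and the cluster boundaries, so r is given as a description with no test. *Cd74* is also a gene of B cells, and the part of stray B cell RNA in its pattern was not tested.

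From cell to cell within the Tfr cluster of a mouse, *Rel* and *Nfkbid* moved together most, with a median Pearson r of 0.33 over 10 mice. *Nfkbia* followed with *Tnfaip3* (0.28), *Nfkbid* (0.27) and *Rel* (0.25), and the noncanonical pair *Nfkb2* and *Relb* reached 0.20. In activated Tfh cells *Nfkb2* and *Relb* were the closest pair (0.19), ahead of *Nfkbia* with *Tnfaip3* (0.15), and *Nfkb1* had an r between 0.00 and 0.03 with each of the other 7. *Nfkbia* and the actin gene *Actb*, taken as a reference, had a median r of -0.02 in Tfr and -0.03 in activated Tfh cells. In Tfr cells, *Rel* and *Nfkbid* each had a median r of 0.07 with *Actb*, above 0 in 10 of 10 mice. Some immediate early genes of antigen receptor signalling moved with some members. In Tfr cells, *Nfkbid* with *Nr4a1* reached 0.40 and *Nfkbia* with *Junb* 0.42, the highest pair of each immediate early gene. In activated Tfh cells these pairs had 0.18 and 0.26, and each was above 0 in 10 of 10 mice. *Fos*, also read, had a median r from -0.01 with *Relb* to 0.14 with *Nfkbid* in Tfr cells. *Nr4a1* with *Bcl3* was 0.01 there. *Foxp3* itself hardly moved with the members, with a median r between -0.06 (*Nfkb1*) and 0.07 (*Bcl3*) in Tfr cells. Counts per cell are low, cells of a mouse share a library and depth, and no test was made of these values.

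**Figure D3:**
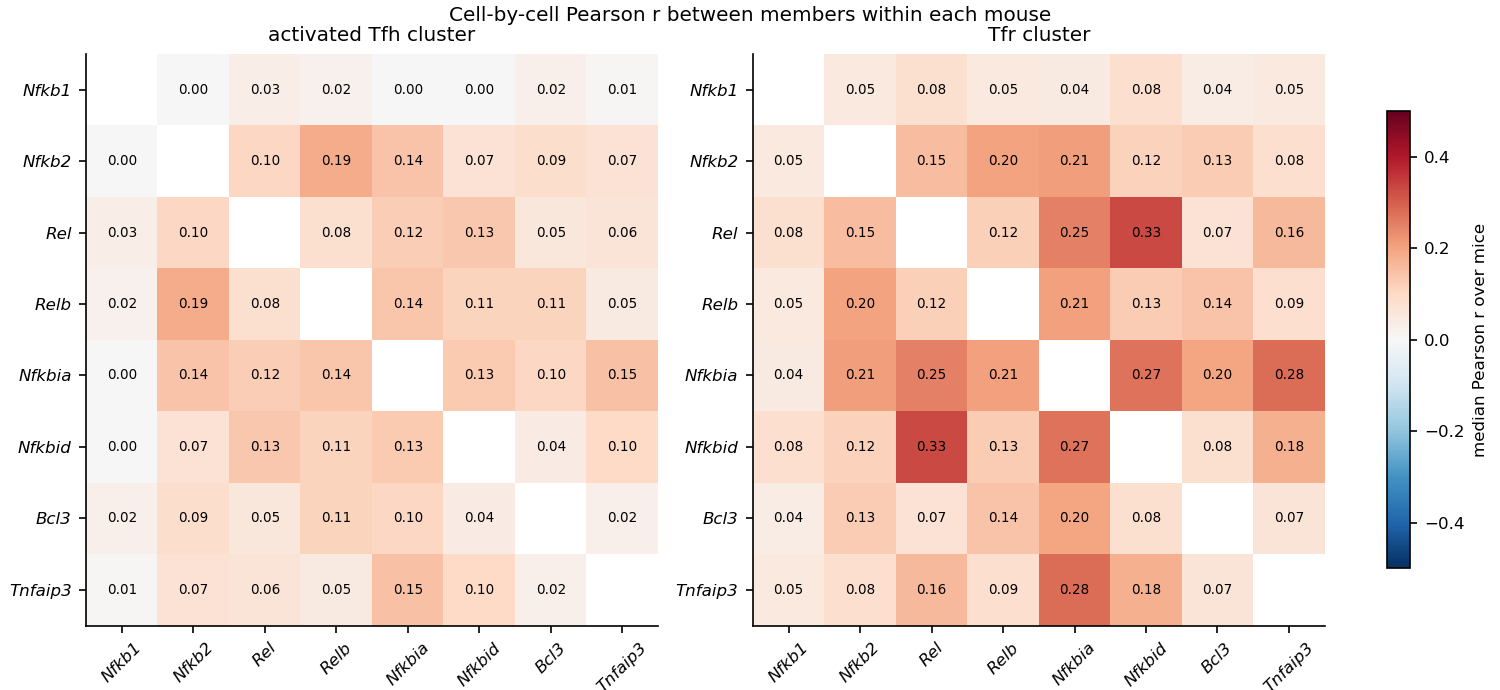
Median over 10 mice of the Pearson r between pairs of members across the cells of a mouse, on log2(corrected count + 1), for the activated Tfh cluster (left) and the Tfr cluster (right), with colour from blue (negative) to red (positive). The pair *Rel* and *Nfkbid* is highest in Tfr cells at 0.33, and *Nfkb1* is near 0 with every other member in activated Tfh cells.

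The study's own contrast sets 564Igi chimeras, with autoreactive B cells, against immunized WT chimeras. It cannot ask about the autoreactive B cell environment alone. No member was called in all cells or in any cluster, the call being a limma p below 0.01 after Benjamini-Hochberg adjustment with a difference of more than 0.2 either way. Calls over all genes were as rare: 0.01% of 9959 in all cells, 0.0101% in activated Tfh, 0.02% in Tfr, 0.0202% in Sostdc1, 0.0104% in effector, 0.0106% in interferon stimulated and 0% in central memory cells. The 564Igi mean was higher for 6 of 8 members in all cells, beside 38.4% of all genes. At an unadjusted limma p below 0.05, 1 of 8 members, *Bcl3*, passed in all cells (3.19% of all genes), activated Tfh (3.99%), Tfr (3.5%) and effector cells (5.22%). None passed in Sostdc1 (4.6% of genes) or interferon stimulated cells (4.2%), and 3 of 8 passed in central memory cells (7.57%). By two-sided exact permutation over mice, 2 of 56 member and population values had p below 0.05, and the lowest Benjamini-Hochberg adjusted permutation p was 0.50.

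In all cells, *Bcl3* had the widest difference of the 8. Its level was 0.23, 0.21, 0.40, 0.31 and 0.27 in WT mice 11, 12, 14, 23 and 36, and 0.41, 0.39, 0.33, 0.31 and 0.35 in 564Igi mice 13, 17, 21, 24 and 34. WT mice 11, 12, 23 and 36 were below the lowest 564Igi mouse, but WT mouse 14 was above all 564Igi mice except mouse 13, so the groups overlapped. The difference was 0.07 (limma SE 0.03, unadjusted p = 0.0207, adjusted p = 0.9997), with an exact permutation p of 0.0873. The share of cells with *Bcl3* was 23.2% ± 5.56 in WT and 28.5% ± 2.89 in 564Igi mice. Within clusters it was 0.07 in activated Tfh cells (exact permutation p = 0.0952), 0.08 in Tfr cells (0.135), 0.04 in Sostdc1 cells (0.302), 0.12 in effector cells (0.0714) and 0.06 in interferon stimulated cells (0.514). The 564Igi mean of *Bcl3* was thus the higher in 7 of 7 populations, as for 3.66% of 8826 genes tested in all of them, and these populations share mice and cells. Among mice labelled F, the WT levels were 0.21 and 0.23 and the 564Igi levels 0.33 to 0.41; among those labelled M, they were 0.27 to 0.40 and 0.31 to 0.39. With 2 or 3 mice to a side, neither sex was tested alone.

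The central memory cluster had the largest *Bcl3* difference. The WT levels were 0.11, 0.13, 0.14, 0.12 and 0.16, and the 564Igi levels 0.49, 0.32 and 0.30 in mice 13, 17 and 24, which did not overlap. The difference was 0.24 (limma SE 0.05, unadjusted p = 5.07e-05, adjusted p = 0.075), with an exact permutation p of 0.0179, the smallest that 5 against 3 mice allow. *Nfkbid* did not overlap either, at 0.08 to 0.12 in WT and 0.14 to 0.24 in 564Igi mice, with a difference of 0.09 (exact permutation p = 0.0179, limma adjusted p = 0.621). *Relb* differed by 0.12 (exact permutation p = 0.0536, limma adjusted p = 0.575). Groups did not overlap for 4.77% of the 10351 genes tested there. Effector markers also differed within this cluster, with *Gzmk* in 15.9% of WT and 40.1% of 564Igi cells, *Ccl5* in 11.4% and 21.7% and *Nkg7* in 53.6% and 65.2%, while the central memory marker *Sox4* was in 71.1% and 59.8%. Their part in the *Bcl3* difference was not tested. These values rest on 21, 83 and 29 cells of the 3 564Igi mice against 42 to 185 cells of the WT mice. Without mouse 24 the *Bcl3* difference was 0.27 and passed the call (limma adjusted p = 0.00951). Without mouse 13 it was 0.17 (limma adjusted p = 0.178), with 2 564Igi mice left in each. With no mouse left out, the limma adjusted p over other settings ran from 0.0357 (labelled sex as covariate) to 0.695 (equal cells per mouse). The limma adjusted p was 0.313 without the trend, 0.316 with no filter on low genes and 0.407 with heat shock score as a covariate.

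For the remaining members, differences in all cells were smaller than the spread between mice. *Nfkbia* in all cells was 1.26, 1.37, 1.19, 1.23 and 1.15 in WT and 1.61, 1.07, 1.28, 1.36 and 1.12 in 564Igi mice. The 564Igi mice spanned the whole WT range and passed it at both ends, with mouse 13 highest and mouse 17 lowest of all 10. The difference was 0.05 (limma SE 0.09, exact permutation p = 0.698). Mouse 13 was also highest for *Nfkb2*, *Relb*, *Bcl3* and *Tnfaip3*. Expression summed over 8 immediate early genes, which is not on the log2 scale of the levels, was 15.7 in mouse 13 and 15.4 in WT mouse 12. It was 8.94 to 11.7 in the others, and the part of these genes in the members' levels was not tested. The *Nfkb1* mean was lower in 564Igi mice in 6 of 7 populations, which share mice and cells. In all cells, 38.4% of genes had the higher mean in 564Igi mice, so a lower mean was the commoner direction. The lowest exact permutation p of *Nfkb1* was in Tfr cells, where the difference was -0.04 (limma SE 0.02, exact permutation p = 0.0794). *Nfkbia* in effector cells was 0.74 to 0.99 in WT and 0.90 to 1.09 in 564Igi mice, a difference of 0.14 (limma SE 0.08, exact permutation p = 0.0556). *Rel* differed by -0.03, *Nfkb2* by 0.01, *Relb* by 0.02, *Nfkbid* by 0.01 and *Tnfaip3* by 0.01 in all cells, with exact permutation p between 0.452 and 0.603.

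**Figure D4:**
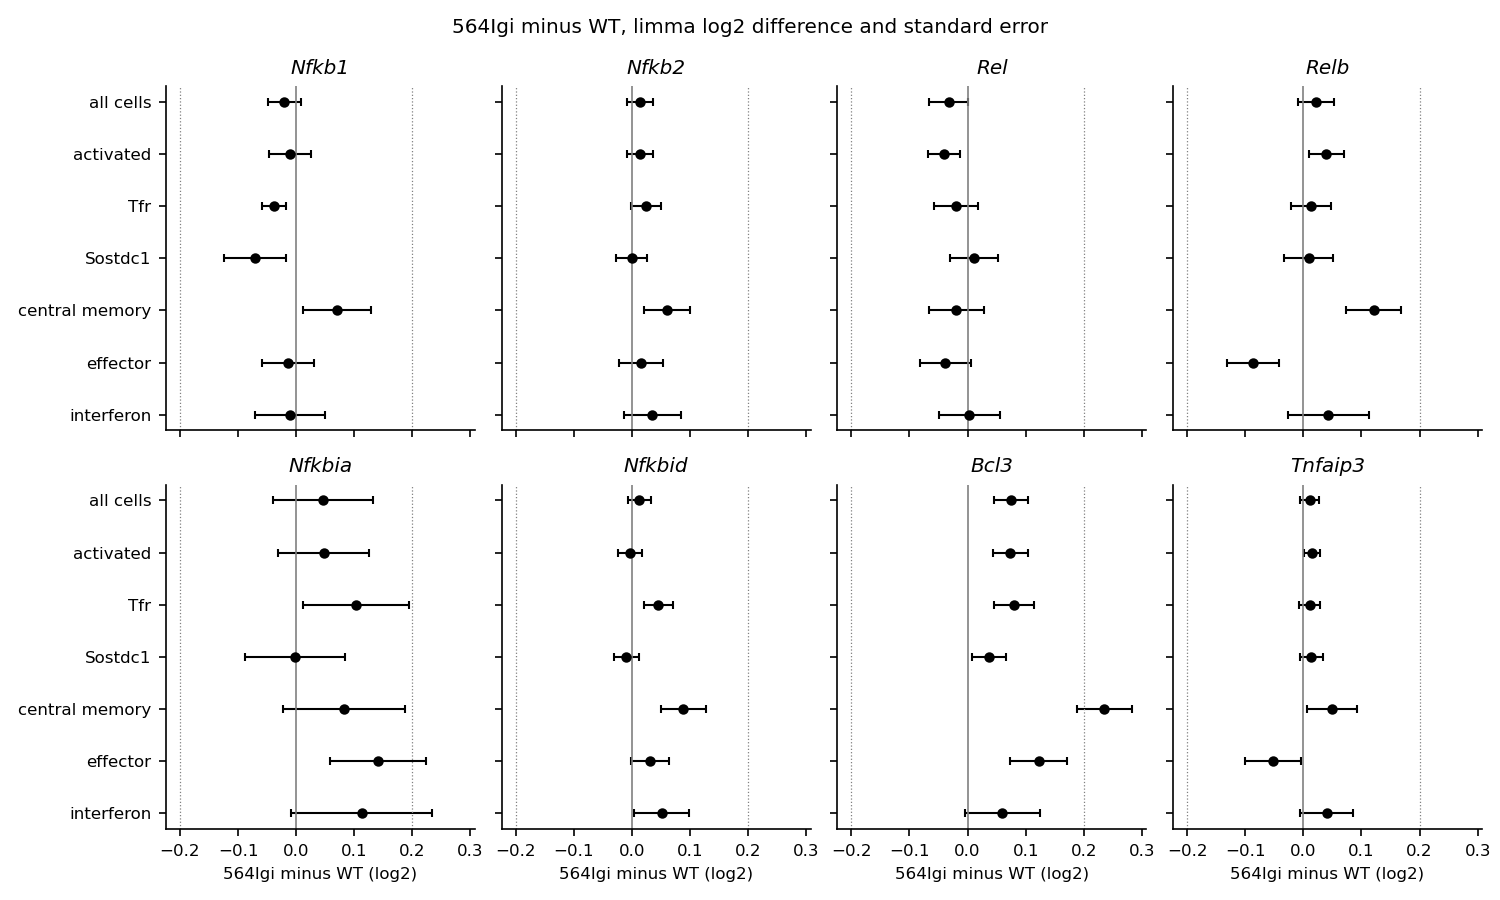
Difference 564Igi minus WT of each member in all cells and in each cluster, as the limma log2 difference (points) with its standard error (bars), with dotted lines at the fold limit of 0.2. *Bcl3* is to the right of 0 in all 7 populations and past the dotted line in central memory cells, where 3 564Igi mice entered.

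Of the other pathway genes, none was called between the groups in all, activated Tfh or Tfr cells. In all cells, 5 of 71 had an unadjusted limma p below 0.05, beside 3.19% of all genes, with *Tnfsf8* and *Icos* higher in 564Igi mice and *Tnf*, *Lta* and *Tnfsf11* lower. The difference of *Tnfsf8*, for the CD30 ligand, was 0.21 (limma SE 0.05, adjusted p = 0.157). Of the 18 target genes, none had an unadjusted limma p below 0.05 in all cells, and their median difference was 0.0047.

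Whether the gap between Tfr and activated Tfh cells itself differed between the groups was tested on each mouse's difference. Limma called no gene of 9682 (0% called, 7.27% at an unadjusted p below 0.05), and 1 member, *Nfkbid*, had an unadjusted p below 0.05. The *Nfkbid* gap averaged 0.11 ± 0.04 in WT and 0.15 ± 0.02 in 564Igi mice, a difference of 0.05 (limma adjusted p = 0.628, exact permutation p = 0.0238, 0.381 after Benjamini-Hochberg adjustment over 16 values). The gap of *Nfkbia* was 0.52 ± 0.07 and 0.58 ± 0.12 (exact permutation p = 0.381). For the Sostdc1 cluster against activated Tfh cells, the *Nfkb1* gap was 0.20 ± 0.06 in WT and 0.14 ± 0.08 in 564Igi mice (exact permutation p = 0.198), and no gene of 9671 was called (0% called, 6.33% at an unadjusted p below 0.05).

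T cell receptor sequences, which played no part in the expression values, allowed expanded clonotypes to be set against singletons within each mouse, an expanded clonotype being 2 or more cells of a mouse with the same CDR3α and CDR3β pair. Receptors were paired for 21405 cells (75.9%), among them 6637 expanded and 2416 singleton cells in the activated Tfh cluster and 5808 and 2972 in the Tfr cluster. Limma called 0% of 9886 genes in activated Tfh and 0% of 9979 in Tfr cells, while 21% and 17% had an unadjusted p below 0.05. Of the members, only *Nfkbia* in Tfr cells was among the latter. It was higher in expanded cells by 0.01, -0.04, 0.15, 0.09 and 0.07 in the WT mice and 0.21, 0.10, 0.06, -0.01 and 0.08 in the 564Igi mice. Thus 8 of 10 mice were higher and mice 12 and 24 slightly lower, with a mean of 0.07 ± 0.07 (limma adjusted p = 0.113, exact sign flip p = 0.0117, 0.281 after adjustment over 24 values). In the Sostdc1 cluster, with 1488 and 340 cells from 7 mice, no member had an unadjusted limma p below 0.05 (0% of 10159 genes called, 5.19% at an unadjusted p below 0.05).

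*Nfkb1* in activated Tfh cells split by group. Expanded minus singleton levels were 0.05, 0.06, 0.15, 0.09 and 0.02 in the WT mice and -0.02, -0.04, -0.03, -0.04 and -0.04 in the 564Igi mice. All 5 WT mice were above 0 and all 5 564Igi mice below it, a pattern of opposite signs that 0.223% of genes showed. The means were 0.07 ± 0.05 and -0.03 ± 0.01, and the difference of -0.11 had an exact permutation p of 0.00794, the smallest that 5 against 5 mice allow, and 0.190 after Benjamini-Hochberg adjustment over 24 values. In the Sostdc1 cluster, the *Nfkb1* means were 0.12 ± 0.01 in 3 WT and -0.11 ± 0.16 in 4 564Igi mice (exact permutation p = 0.0571). Of the 24 values, 3 others had an unadjusted p below 0.05: *Nfkbid* in activated Tfh cells (exact permutation p = 0.0397), *Tnfaip3* in Sostdc1 cells (exact permutation p = 0.0286, the smallest for 3 against 4 mice) and *Bcl3* in Tfr cells, at 0.06 ± 0.03 in WT and -0.03 ± 0.08 in 564Igi mice (exact permutation p = 0.0238, 0.229 after adjustment).

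**Figure D5:**
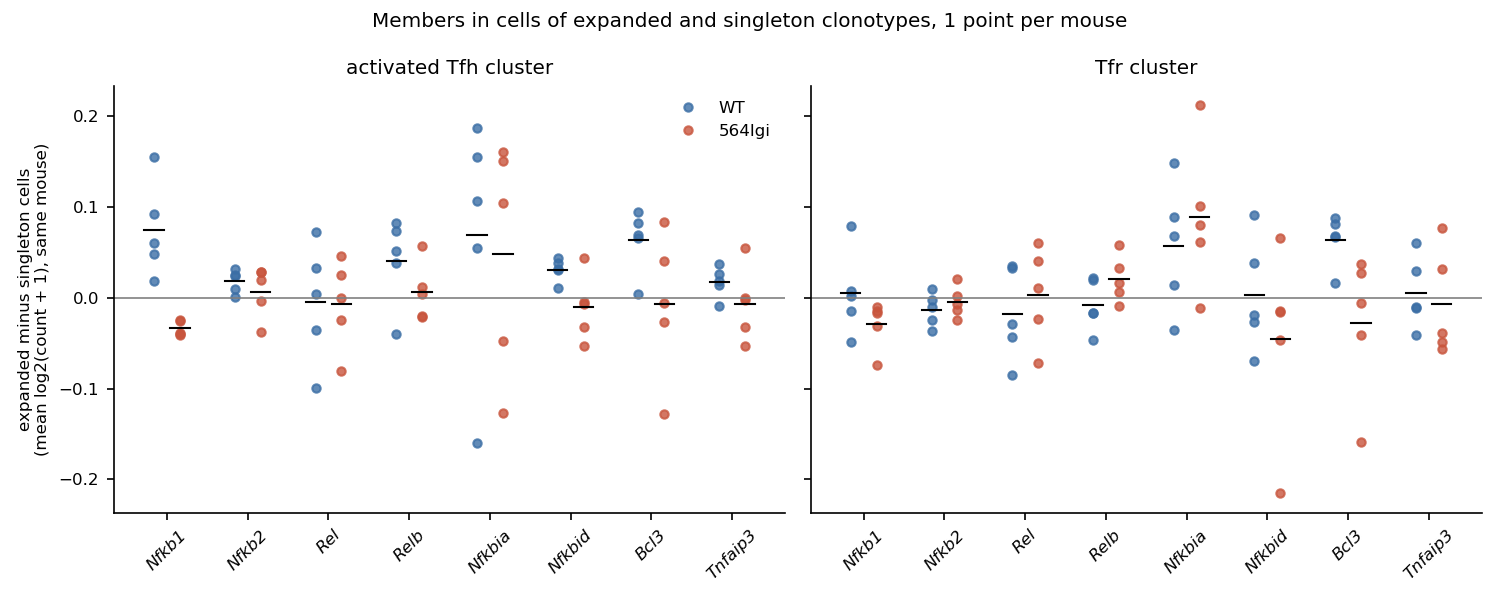
Level in cells of expanded clonotypes minus level in singleton cells of the same mouse, on the log2 scale, in the activated Tfh (left) and Tfr (right) clusters, with 1 point per mouse (blue WT, red 564Igi) and bars at group means. For *Nfkb1* in activated Tfh cells the 5 WT mice lie above 0 and the 5 564Igi mice below it.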

How the data were processed

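Each chimera gave a 10x 5′ gene expression and a T cell receptor library. Per the labels, reads were processed with Cell Ranger 4.0.0 and Seurat 3.1.4 (GRCm38), and the labels do not tie mice to litters or experiments. The authors filtered and clustered the cells and ran sctransform on WT and 564Igi cells separately, with mitochondrial and ribosomal content, UMIs and heat shock score regressed out. In the deposited matrix each value is the natural log of 1 plus the corrected UMI count, and all nonzero values came out whole once the log was reversed (tolerance 1e-06). The cell table, as deposited, gives raw UMI counts, the percent of mitochondrial UMIs, a heat shock score and cluster names. No doublet caller and no correction for free RNA was run here, and with follicular T cells alone there was no cell type to give a background for the members.

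Corrected counts are not raw counts, so count models were not used. Values were converted to log2(corrected count + 1) and averaged per mouse. Limma 3.58.1 (R 4.3.3, trend option) tested genes that 1% of cells held in a number of mice equal to the smaller group's size. A call needed a p below 0.01 after Benjamini-Hochberg adjustment and a difference of more than 0.2 either way. Single values were compared by two-sided exact permutation over mice (smallest p 0.00794 for 5 against 5) or exact sign flips, in Python 3.11.15 (numpy 2.4.6, pandas 2.3.3, scipy 1.17.1), with plots by matplotlib 3.10.9. P-values measure the spread between these 10 mice. Scripts were tested on simulated data. Named genes were the 8 members, the 3 most widely found pathway genes of each role (1 role is not reported here) and the 3 genes most like each member, and other pathway genes were named after their values were seen. The members and lists were chosen with earlier results of these data known. Coordinates are from GENCODE vM21, promoters from RefSeq (GRCm38.p6).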

Additional observations from a re-analysis of the deposited data

Results flagged for a closer look

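In 104 groups of 4 or 5 mice, each a member in a population and condition, 2 mice lay far from the rest of their group by Dixon's test at 95%, where chance gives about 1 group in 20. WT mouse 36 had an *Nfkb1* level of 0.42 in the central memory cluster (95 cells), against 0.28 to 0.30 in the other WT mice. 564Igi mouse 24 had a *Relb* level of 0.34 in the effector cluster (45 cells), against 0.17 to 0.22 in the other 564Igi mice.

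The difference in *Nfkb1* between expanded and singleton cells of the activated Tfh cluster went one way in every WT mouse and the other way in every 564Igi mouse. The groups' means differed by -0.11 on the log2 scale, with an exact permutation p of 0.00794 (the smallest possible) and 0.190 after adjustment over 24 values.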

How the results depend on the processing

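Over 51 member differences and 875 alternatives, 832 kept their direction and side of the threshold, 42 turned direction, in 20 differences of at most 0.10, and 1 gained a call, *Bcl3* in central memory cells without mouse 24 (0.27, adjusted p = 0.00951). Dropping the limma trend, changing the gene filter or changing the p threshold cannot move a mean difference. Agreement in direction was fixed in advance there, and no member was called at the main setting. The lowest adjusted permutation p ran from 0.222 to 0.889. The causes were not tested. No paired analysis was possible because the groups share no replicate numbers. Leaving out mice 34 and 36 together was chosen after seeing the data. Leaving out cells with more than 1 α or β chain was not run, since each cell is listed with 1 of each.

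Apart from leaving out mice, these turned: by share of cells, *Nfkbia* in all, activated Tfh and Tfr cells (-0.922, -0.304 and -0.0143 percentage points); with labelled sex as a covariate, *Nfkb1* (0.000934) and *Nfkbid* (0.00409) in activated Tfh cells; with equal cells per mouse, *Nfkb1* in activated Tfh (0.0168) and *Tnfaip3* in Tfr cells (-0.00259); on log2 of counts per 10000, *Relb* in Tfr cells (-0.00183); and with clones of 5 or more cells as expanded, *Relb* (-0.00161) and *Tnfaip3* (0.00854) in Tfr cells.

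Leaving out 1 mouse turned the 564Igi minus WT difference in all cells of *Nfkb1* (-0.0413 to 0.000593), *Nfkb2* (-0.00167 to 0.0302), *Relb* (-0.00257 to 0.0404), *Nfkbia* (-0.0336 to 0.102) and *Tnfaip3* (-0.00218 to 0.0189); in activated Tfh cells of *Nfkb1* (-0.0404 to 0.0144), *Nfkbia* (-0.0191 to 0.0976) and *Nfkbid* (-0.0123 to 0.0157); and in Tfr cells of *Rel* (-0.0518 to 0.0104), *Relb* (-0.00998 to 0.0339) and *Tnfaip3* (-0.00414 to 0.0213). It turned the group difference of the Tfr gap of *Bcl3* (-0.00295 to 0.0114) and *Tnfaip3* (-0.0102 to 0.00746). Between expanded and singleton cells it turned *Rel* (-0.0149 to 0.00411) and *Tnfaip3* (-0.000329 to 0.0117) in activated Tfh cells, and *Rel* (-0.015 to 0.00111), *Nfkbid* (-0.0337 to 0.000374) and *Tnfaip3* (-0.00967 to 0.00508) in Tfr cells.

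Counts of genes called between groups were 1 in all, activated Tfh, effector and interferon stimulated cells, 2 in Tfr and Sostdc1 cells and 0 in central memory cells. Without the limma trend they were 0 in all, activated Tfh, Tfr, Sostdc1, effector and interferon stimulated cells, and clone calls were 5 in activated Tfh and 2 in Tfr cells. At an adjusted p below 0.05 with no fold limit they were 7 in all, 4 in activated Tfh, 9 in Tfr, 4 in Sostdc1, 3 in central memory and 6 in effector cells, with 1 for the Sostdc1 gap and 468 and 73 for clones in activated Tfh and Tfr cells. On log2 of counts per 10000 they were 2 in all, central memory and effector cells. With no filter on low genes they were 0 in activated Tfh and Tfr cells and 1 in Sostdc1 cells, and with a filter at 5% of cells or labelled sex as a covariate 2 in central memory cells. With heat shock score as a covariate there were 6 in effector cells, and with at least 50 cells 3 in effector cells. That limit left mouse 17 as the only 564Igi mouse in central memory cells and mouse 34 in interferon stimulated cells. Counts of calls are therefore not given for those clusters. Leaving out 1 mouse gave 1 to 2 in all, 1 to 3 in activated Tfh, Tfr, Sostdc1, effector and interferon stimulated cells and 0 to 9 in central memory cells, the 9 without mouse 24.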
